A study of Mus musculus with 8 samples.

Results

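Basement membrane genes and a collagen chaperone were followed in whole mouse embryos at the morula and blastocyst stages, with a control group labelled NC and a knockdown group (KD). The gene knocked down was Smarca5, named Snf2h in the labels, which encodes an ISWI-family chromatin remodeler. The set held 10 genes of the 21517 listed in either of the deposited tables. It comprised the laminin chains Lama1, Lama3, Lama5, Lamb1 and Lamc1, the collagen IV chains Col4a1 and Col4a2, the perlecan gene Hspg2, the matrix glycoprotein gene Sparc and the collagen chaperone gene Serpinh1. The genes were picked by name with earlier KD against NC results of these data known, among them higher Serpinh1 and Hspg2 and lower Lama3 in KD. Their KD against NC values are therefore a description, and no p-value of single members is given for that comparison. All 10 were found in both tables and all passed the filter on low values (a mean of at least 10 over the 4 libraries of a table).

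There were 4 groups of 2 libraries, NC morulae, KD morulae, NC blastocysts and KD blastocysts, and each library was polyadenylated RNA from a pool of 20 whole embryos. A morula is the compacted embryo before a cavity forms, and a blastocyst encloses a cavity and consists of trophectoderm around an inner cell mass. The mouse strain, the way the knockdown was made, the meaning of NC and which of the study's embryonic days belongs to which stage were not stated in the labels read here. The labels do not state whether replicate pools were collected independently, so the p-values and spreads measure only how these libraries differ, which may be technical. In a pool of whole embryos, fewer cells of a type and less RNA per cell cannot be told apart.

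A basement membrane is a thin sheet of extracellular matrix on which epithelia rest. Laminins are cross-shaped trimers of an alpha, a beta and a gamma chain, and collagen IV is a triple helix built mainly of alpha 1 and alpha 2 chains that forms a second network. Perlecan is a heparan sulfate proteoglycan that binds both networks, SPARC binds collagen, and SERPINH1 (HSP47) is a chaperone of the endoplasmic reticulum that binds folded procollagen. In the mouse embryo the primitive endoderm, a layer of the inner cell mass, is known as a strong producer of these proteins, and its parietal descendants lay down Reichert's membrane.

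The values were the authors' normalized abundance per gene, with a separate scaling for each stage's table, so levels were not tested between stages. The spacing of low values gave an estimated depth of 16177240 to 18568756 reads for morula libraries and 13958296 to 23304923 for blastocyst libraries. Levels of the knocked-down gene followed the labels. Smarca5 was 9678 and 9760 in NC morulae against 501 and 470 in KD morulae, and 7000 and 8283 in NC blastocysts against 906 and 855 in KD blastocysts. Markers of trophectoderm (Cdx2, Krt8), epiblast (Nanog) and primitive endoderm (Gata6) were present in all 8 libraries.

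RefSeq promoter windows on GRCm38.p6, the same assembly as mm10, were found for 7 of the 10 members.

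Both following windows are shown because Serpinh1 and Hspg2 are the members that were higher in KD by the most at both stages. Each stretch ends just before the gene's start in the mm10 annotation and measures 250 bases for Serpinh1 (chr7:99353240-99353489, minus strand) and 216 bases for Hspg2 (chr4:137468553-137468768, plus strand, where the last 34 bases of the RefSeq window lie inside the annotated gene and were left out), printed 5′ to 3′. Capitals mark GGGCGG on either strand, the core of the GC box bound by Sp-family factors.
Serpinh1: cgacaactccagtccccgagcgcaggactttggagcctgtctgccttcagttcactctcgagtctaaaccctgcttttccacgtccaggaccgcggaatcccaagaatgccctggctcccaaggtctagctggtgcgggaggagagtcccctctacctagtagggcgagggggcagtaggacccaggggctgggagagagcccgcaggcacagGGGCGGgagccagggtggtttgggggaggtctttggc
Hspg2: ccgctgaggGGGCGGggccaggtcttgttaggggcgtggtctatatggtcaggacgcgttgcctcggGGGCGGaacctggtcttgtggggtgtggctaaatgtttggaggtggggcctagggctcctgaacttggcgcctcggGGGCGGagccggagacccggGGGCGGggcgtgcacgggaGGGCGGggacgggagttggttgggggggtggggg
The Serpinh1 stretch holds 1 such match and the Hspg2 stretch 5. Over the 250 bases upstream of all 32851 RefSeq starts, 32.7% hold at least 1. The other motifs searched on both strands were CCAAT (33.8% of windows), GATAA, a core bound by GATA factors (22.6%), and the heat shock element (0.466%), and none of these is in either window, so no motifs overlap there. Matches are a description of letters, and no binding was measured.

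Serpinh1 (ENSMUSG00000070436, mm10 chromosome 7, 99345376 to 99353239, minus strand) was the member with the largest difference in morulae. Its normalized abundance was 57.6 and 37.6 in NC morulae and 336 and 342 in KD morulae, 7.13-fold higher (log2 fold change 2.84, SE 0.33, on the log2(value + 1) scale used throughout). The KD libraries lay close together and far above both NC libraries. In blastocysts it was 807 and 1315 in NC and 2147 and 2753 in KD, 2.31-fold higher (log2 fold change 1.24, SE 0.24), again without overlap. The log2 fold change was lower by 1.60 in blastocysts (-1.60, SE 0.40), a difference of the very contrasts that chose the gene and so given without a test.

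Hspg2 (ENSMUSG00000028763, chromosome 4, 137468769 to 137570630, plus strand), the core protein of perlecan, was also higher in KD at both stages. It was 259 and 149 in NC and 883 and 681 in KD morulae, 3.83-fold higher (log2 fold change 1.97, SE 0.31). In blastocysts it was 614 and 993 in NC and 2131 and 3017 in KD, 3.20-fold higher (1.70, SE 0.26). Groups did not overlap at either stage, and the log2 fold change was lower by 0.28 in blastocysts (-0.28, SE 0.45).

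Lama3 (ENSMUSG00000024421, chromosome 18, 12333819 to 12583013, plus strand) encodes the alpha chain of laminin-332, the laminin of hemidesmosomes, and had the lowest KD level relative to NC. Lama3 was 485 and 252 in NC and 46.8 and 69.5 in KD morulae, 6.33-fold lower in KD (log2 fold change -2.59, SE 0.41). In blastocysts it was 396 and 418 in NC and 57.7 and 110 in KD, 4.84-fold lower in KD (-2.33, SE 0.34). At each stage the KD libraries were both under the lower NC library. Lamb3, the beta chain gene of laminin-332, was under the filter at both stages. Its values were 1.21 and 2.71 in NC and 1.67 and 1.83 in KD morulae, and 1.04 and 12.9 against 0.668 and 7.06 in blastocysts. Serpinh1, Hspg2 and Lama3 were the 3 members with a difference of at least 2-fold on the log2 scale, the same 3 genes in morulae and in blastocysts. Of all genes tested, 6.68% of 13404 in morulae and 8.07% of 13651 in blastocysts differed at least 2-fold without overlap in either direction. The shares were 4.04% higher and 2.63% lower in morulae, where 2 members were higher and 1 lower, and 4.67% and 3.41% in blastocysts, where the counts were the same.

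**Figure D1:**
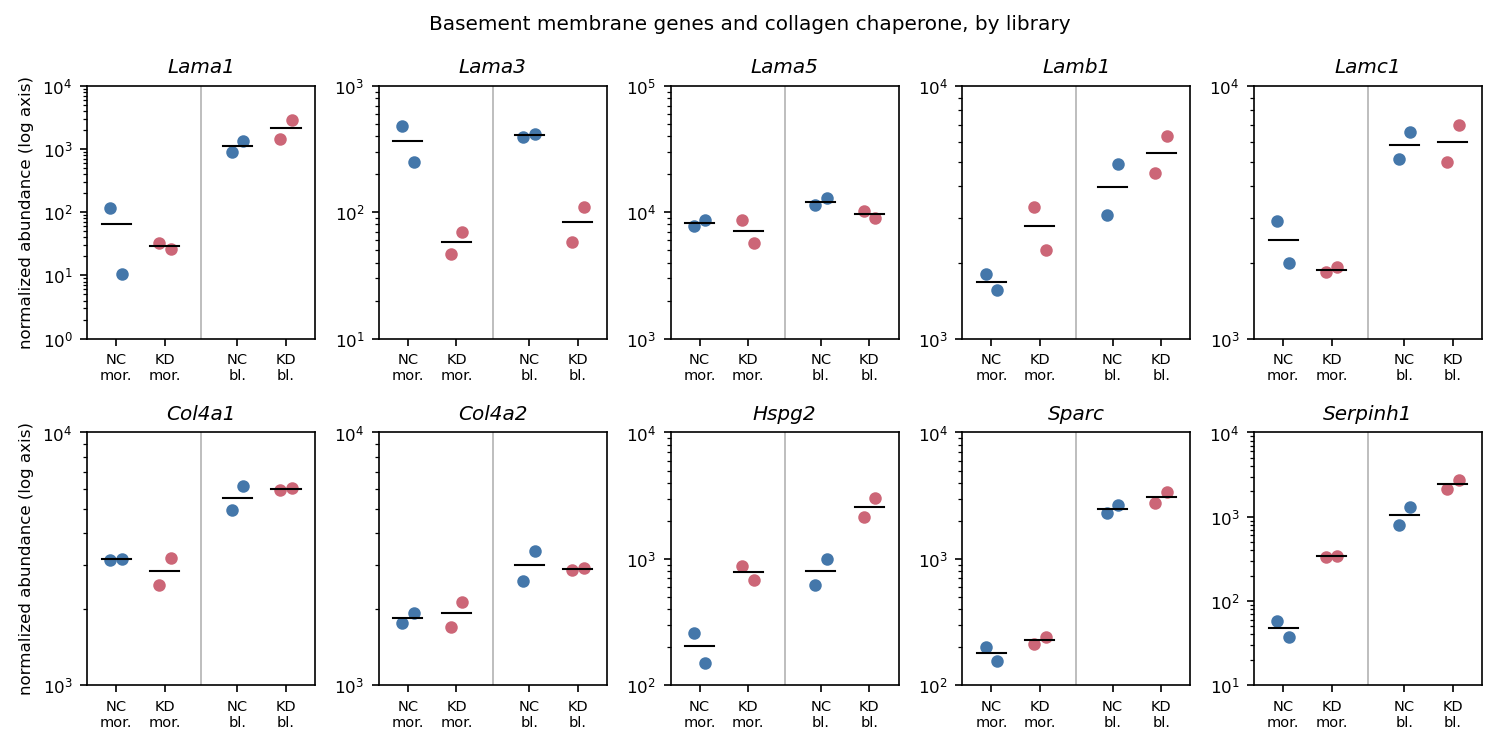
Normalized abundance of the 10 genes (log axis, a separate scale for each gene) in NC (blue) and KD (red) libraries of morulae (mor.) and blastocysts (bl.), with points for the 2 libraries of a group and a line for their mean. Serpinh1 and Hspg2 sit higher and Lama3 lower in KD than in NC at both stages without overlap, and levels in different stages come from separately scaled tables.

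Lama5 (chromosome 2, 180176373 to 180225859, minus strand) encodes the alpha chain of laminin-511 and was the most abundant laminin alpha chain in every library. It was 7799 and 8640 in NC and 8627 and 5712 in KD morulae, where the groups overlapped (log2 fold change -0.23, SE 0.20) and the sign turned without KD library 2, to 0.072. In blastocysts it was 11404 and 12910 in NC against 10260 and 9049 in KD (-0.33, SE 0.10), with both KD libraries below NC.

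Lama1 (chromosome 17, 67697259 to 67822647, plus strand), the alpha chain of laminin-111, the main laminin of the early embryo's basement membranes, was near the bottom of the range in morulae. Its values there were 118 and 10.3 in NC and 32.7 and 26.0 in KD, so the 2 NC libraries differed more from each other than from KD (log2 fold change -0.29, SE 1.06). The sign turned without NC library 1, to 1.41. In blastocysts Lama1 was 901 and 1336 in NC and 1452 and 2939 in KD (0.91, SE 0.33), without overlap but with KD library 1 close to NC library 2.

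Lamb1 (chromosome 12, 31265234 to 31329644, plus strand) and Lamc1 (chromosome 1, 153218922 to 153332786, minus strand) encode the beta 1 and gamma 1 chains that laminin-111 and laminin-511 share. Lamb1 was 1804 and 1553 in NC and 3321 and 2241 in KD morulae, 1.66-fold higher (log2 fold change 0.70, SE 0.21). In blastocysts Lamb1 was 3071 and 4909 in NC and 4508 and 6340 in KD (0.46, SE 0.24), and the groups overlapped. Lamc1 was 2913 and 1987 in NC and 1826 and 1916 in KD morulae (-0.36, SE 0.20), below NC but with one KD library close to one NC library. In blastocysts Lamc1 was 5123 and 6563 in NC and 4995 and 6980 in KD (0.03, SE 0.18), with overlapping arms. The sign turned without NC library 1, to -0.15, and without KD library 2, to -0.22.

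Col4a1 (chromosome 8, 11198423 to 11312826, minus strand) and Col4a2 (chromosome 8, 11312805 to 11449287, plus strand) stand head to head, with annotated starts that overlap by 22 bases, and differed little between KD and NC. Col4a1 was 3118 and 3169 in NC and 2499 and 3182 in KD morulae (log2 fold change -0.16, SE 0.15), and 4943 and 6112 against 5913 and 6038 in blastocysts (0.12, SE 0.12). Col4a2 was 1753 and 1936 in NC and 1704 and 2139 in KD morulae (0.05, SE 0.16), and 2584 and 3396 against 2856 and 2915 in blastocysts (-0.04, SE 0.14). Leaving out 1 library was enough to turn each sign. In morulae Col4a1 became 0.018 without KD library 1, and Col4a2 became -0.020 without NC library 1 and -0.11 without KD library 2. In blastocysts Col4a1 became -0.033 without NC library 1 and Col4a2 0.16 without NC library 2. KD and NC libraries overlapped for both chains at both stages, while those of Serpinh1, whose product binds their procollagen, did not.

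Sparc (chromosome 11, 55394500 to 55423183, minus strand) was 201 and 155 in NC and 211 and 242 in KD morulae (log2 fold change 0.35, SE 0.27), and 2295 and 2676 against 2756 and 3369 in blastocysts (0.30, SE 0.13). Both KD libraries lay above NC at each stage, though by amounts close to the spread within an arm.

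**Figure D2:**
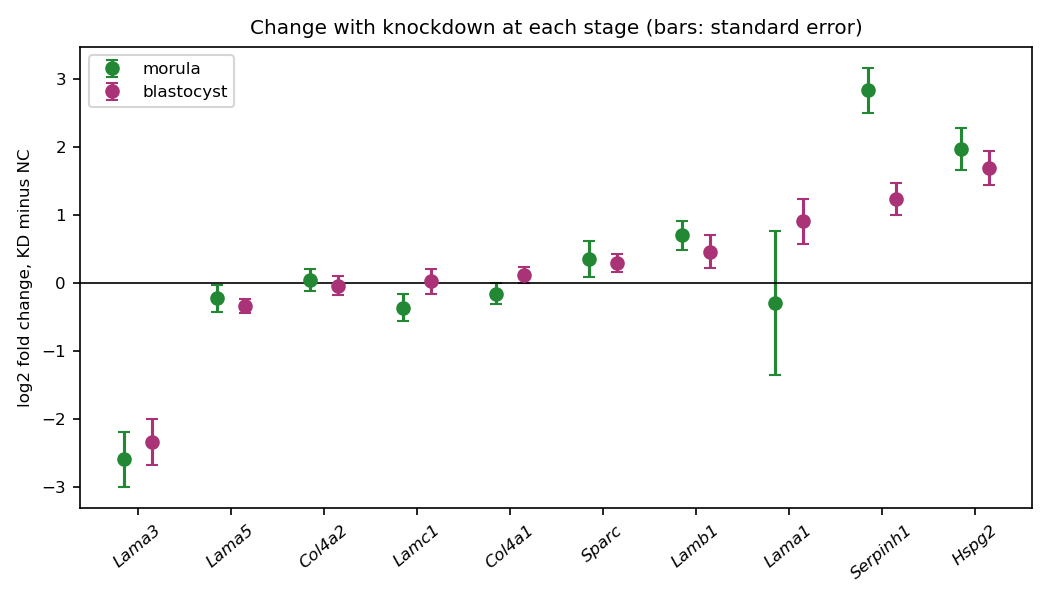
Log2 fold change (KD minus NC, vertical axis) of each gene in morulae (green) and blastocysts (purple), with bars for the limma standard error. Serpinh1 (2.84 and 1.24) and Hspg2 (1.97 and 1.70) stand above 1 and Lama3 (-2.59 and -2.33) below -1 at both stages, and the wide bar of Lama1 in morulae reflects NC values of 118 and 10.3.

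By count, both KD libraries lay above both NC libraries for 4 of 10 members in morulae, against 20.7% of all tested genes, and below for 2, against 21.2%. In blastocysts they lay above for 4, against 24.6%, and below for 2, against 24.9%. Serpinh1, Hspg2 and Sparc were above at both stages, Lama3 was below at both, and no member was separate at both stages in opposite directions. The log2 fold change did change sign between stages for Lama1, Lamc1, Col4a1 and Col4a2, whose arms overlapped at 1 or both stages. The share of all tested genes that were separate in the same direction at both stages is not given here. The log2 fold change was above 0 for 5 of 10 members in morulae, against 49.2% of genes, and for 7 of 10 in blastocysts, against 50.3%. The median log2 fold change of the members was -0.05 in morulae and 0.21 in blastocysts, beside -0.01 and 0.00 over all tested genes. Without NC library 1 or KD library 1 the morula median became 0.26 or 0.12, and the blastocyst median was 0.05 without NC library 1. The members were chosen with this contrast known, so nothing is read from these counts.

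No member passed an adjusted p under 0.05 in limma without a replicate block, with Benjamini-Hochberg adjustment over all tested genes. In this fit 0.00746% of genes passed in morulae (1 gene, Smarca5) and 0.0879% in blastocysts (12 genes, 0.0366% higher and 0.0513% lower in KD). Other limma results here are also without a block unless 1 is named. Calls with the replicate number as a block differ and are given in the last section. Leaving out any 1 of the 4 blastocyst libraries brought the 12 genes down to between 1 and 3. At an unadjusted p under 0.05 there were 4 members in morulae, where 10.4% of all genes reached it, and 5 in blastocysts, where 17.6% did. Because the choice of members was made with this contrast known, these counts are no evidence of an excess over all genes. In the test of the difference between stages 0 of 12875 genes passed in limma, and 687 genes had an unadjusted p under 0.05.

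Levels of different genes were compared per kilobase of the longest coding transcript. In NC morulae the order was led by Lama5, at 722 ± 52.2 per kilobase (SD, n = 2), and Col4a1, at 475 ± 5.54. Lamc1 (321 ± 85.9), Lamb1 (290 ± 30.6) and Col4a2 (286 ± 20.0) followed and overlapped. By merged exon length Lamb1 was lower, at 169 ± 17.8, and stood below Lamc1 (296 ± 79.2) and Col4a2 (279 ± 19.5) without overlap. Sparc (77.4 ± 13.9) stood apart below them. The lowest were Lama3 (34.9 ± 15.6), Serpinh1 (20.9 ± 6.22), Hspg2 (14.4 ± 5.47) and Lama1 (6.74 ± 7.995), each overlapping its neighbour in the order.

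In NC blastocysts Sparc led the order at 1081 ± 117 per kilobase (SD, n = 2), overlapping Lama5 at 1068 ± 93.5. Col4a1 (836 ± 125), Lamc1 (767 ± 134) and Lamb1 (690 ± 225) came next and overlapped. Serpinh1 (466 ± 158), whose libraries also overlapped those of Lamb1, and Col4a2 (464 ± 89.0) followed, and Lama1 (117 ± 32.3), Hspg2 (56.7 ± 18.9) and Lama3 (38.6 ± 1.44) closed the order without overlap between them. Sparc thus had rank 6 in the NC morula table and rank 1 in the NC blastocyst table, though by merged exon length, which is longer for Sparc, its rank in NC blastocysts was 4.

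In KD embryos Serpinh1 stood higher in this order, which restates the KD against NC difference known when it was chosen. It had rank 6 in KD morulae, at 149 ± 1.83 per kilobase (SD, n = 2), and rank 8 in NC. In blastocysts it had rank 2 in KD, at 1077 ± 188, and rank 6 in NC. Lama3 was at 5.51 ± 1.52 per kilobase in KD morulae and 7.97 ± 3.54 in KD blastocysts, with rank 9 and rank 10, and Lama1 was the lowest member in KD morulae at 3.08 ± 0.496.

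Shares and ratios within a library do not depend on a scaling factor applied to the whole library. Whether the authors' normalization also corrected genes separately within a library was not stated, and such a correction would change them. Higher Serpinh1 and Hspg2 and lower Lama3 in KD were known when the members were chosen. Shares and ratios that hold these genes restate those differences and are no further result. The share of other gene ratios that separate KD from NC is not given here. Of the summed per-kilobase level of the member alpha chains (Lama1, Lama3 and Lama5), Lama5 made up 92.2% and 96.8% in NC and 99.0% and 98.2% in KD morulae. Lama3 made up 6.18% and 3.05% in NC and 0.580% and 1.29% in KD morulae, and 3.31% and 3.01% in NC and 0.516% and 0.940% in KD blastocysts. Its share was lower in KD than in NC without overlap at both stages.

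Lama1 made up 1.67% and 0.139% of this sum in NC morulae and 0.448% and 0.534% in KD morulae. In blastocysts it made up 8.34% and 10.7% in NC and 14.4% and 27.7% in KD. Lama5 fills the rest, at 88.3% and 86.3% in NC and 85.1% and 71.4% in KD blastocysts. Per kilobase, this sum held less Lama3 in KD at both stages, and more Lama1 in KD blastocysts. With Lama4, the other alpha chain above the filter, added to the sum, Lama4 made up 1.17% to 3.57% in morulae and 0.467% to 1.35% in blastocysts. Lama3 was then at 6.01% and 2.94% in NC and 0.573% and 1.25% in KD morulae, and at 3.28% and 2.97% against 0.513% and 0.936% in blastocysts, in the same order of groups.

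**Figure D3:**
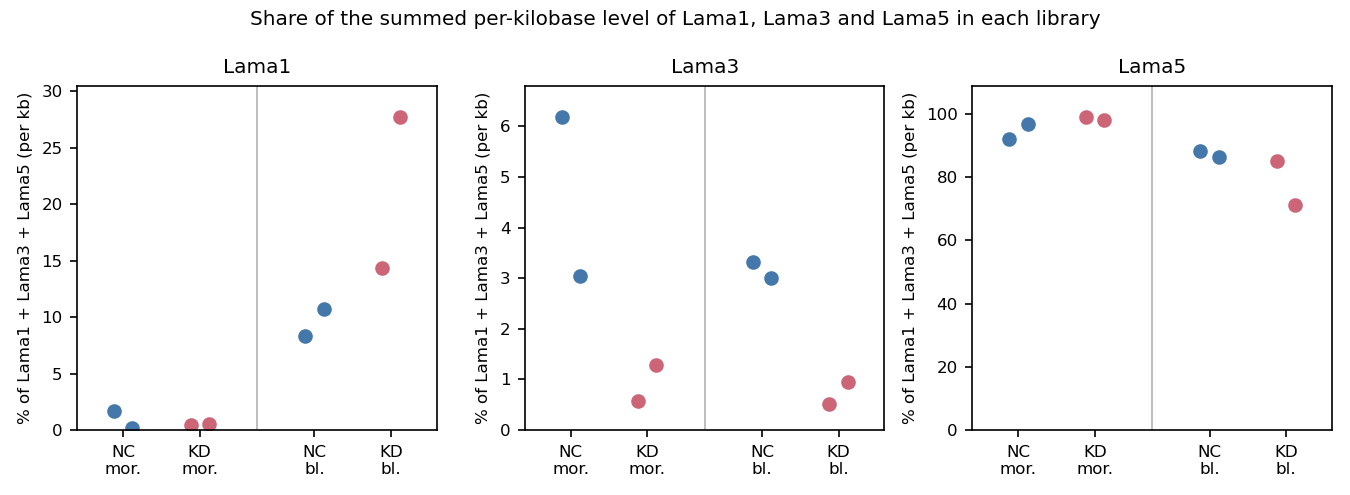
Percent of the summed per-kilobase level of Lama1, Lama3 and Lama5 that each gene made up, in each NC (blue) and KD (red) library of morulae (mor.) and blastocysts (bl.), with a separate vertical scale for each gene. Lama3 stayed at or below 1.29% in the 4 KD libraries and at or above 3.01% in the 4 NC libraries.

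The chaperone was also set against its client. The per-kilobase ratio of Serpinh1 to Col4a1 was 0.0537 and 0.0345 in NC and 0.391 and 0.313 in KD morulae. It was 0.475 and 0.626 in NC and 1.06 and 1.33 in KD blastocysts. The ratio was higher in KD at both stages without overlap, and the KD morulae lay below the NC blastocysts. Col4a1 differed little between arms, so the ratio repeats the difference of Serpinh1.

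The ratio of Hspg2 to Lamc1 was 0.0478 and 0.0404 in NC and 0.260 and 0.191 in KD morulae, and 0.0644 and 0.0813 against 0.229 and 0.232 in blastocysts. Lamb1 to Lamc1, chains that assemble one to one, was 0.816 and 1.03 in NC and 2.40 and 1.54 in KD morulae, and 0.790 and 0.986 against 1.19 and 1.20 in blastocysts. Both ratios were higher in KD at each stage. With merged exon length, which is longer for Lamb1, the Lamb1 to Lamc1 ratio was lower in all 8 libraries, with the same order of groups. It was then 0.516 and 0.652 in NC and 1.52 and 0.976 in KD morulae, and 0.4999 and 0.624 in NC and 0.753 and 0.758 in KD blastocysts.

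The ratio of Col4a1 to Col4a2 ran from 1.43 to 1.73 in morulae and from 1.75 to 2.02 in blastocysts. It was 1.73 and 1.60 in NC and 1.43 and 1.45 in KD morulae, lower in KD. In blastocysts it was 1.87 and 1.75 in NC and 2.02 and 2.02 in KD, higher in KD.

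**Figure D4:**
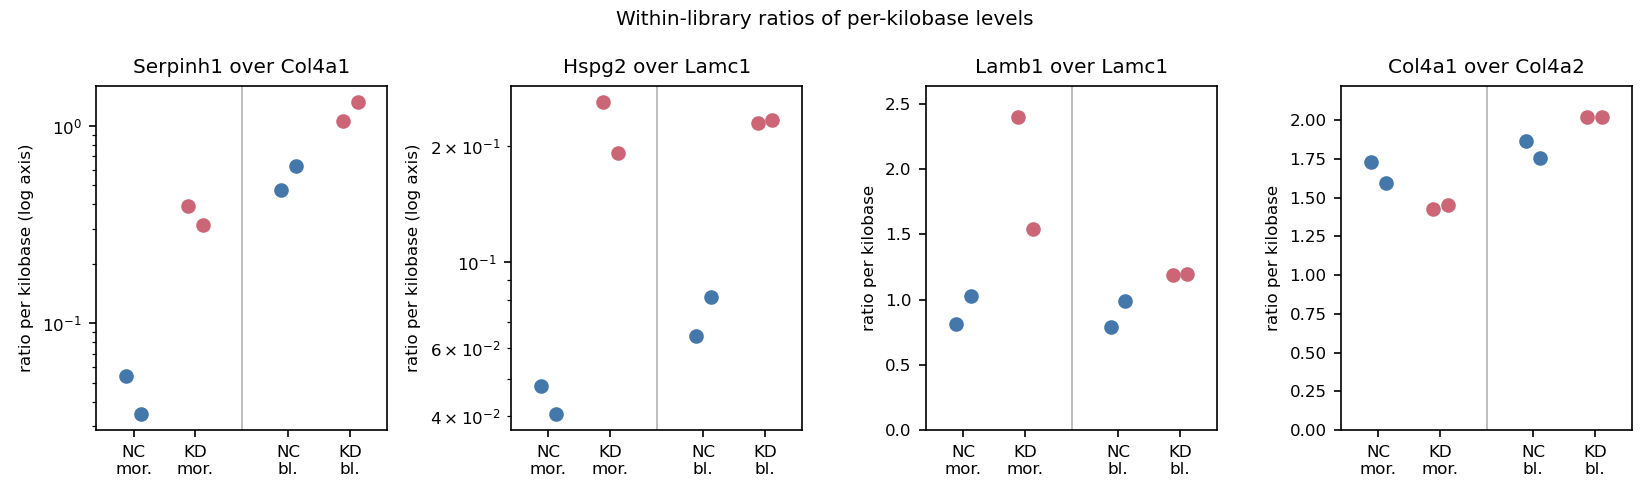
Ratios of per-kilobase levels within each NC (blue) and KD (red) library of morulae (mor.) and blastocysts (bl.), on log axes for Serpinh1 over Col4a1 and Hspg2 over Lamc1 and on linear axes for the others. Serpinh1 over Col4a1 ranges from 0.0345 in an NC morula library to 1.33 in a KD blastocyst library, while Col4a1 over Col4a2 stays between 1.43 and 2.02.

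Libraries of one group differed in a shared direction in blastocysts. All 10 members were higher in NC library 2 than in NC library 1, against 50.2% of all tested genes, with a median log2 difference of 0.38. In KD, 9 of 10 were higher in library 2, against 50.0% of genes, with a median of 0.42, and Lama5 was the exception. In morulae 3 of 10 in NC and 6 of 10 in KD were higher in library 2, against 49.8% and 50.6%. The members' values in blastocysts are thus not independent of each other.

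Blood markers moved with this library difference, and their part in it was not tested. Their summed level was 13.8 and 184 in NC and 15.6 and 99.5 in KD blastocysts, and the hemoglobin gene Hbb-bs was listed at 0 in both libraries 1 and at 82.9 and 40.05 in libraries 2. Primitive endoderm markers were higher in library 2 for 6 of 9 in NC and 7 of 9 in KD blastocysts, among them Sox17 (NC 704 and 1353, KD 892 and 1915) and Gata4 (NC 190 and 380, KD 457 and 822). Lower in library 2 were Pdgfra (2649 and 2472), Dab2 (7908 and 6756) and Sox7 (12.2 and 10.5) in NC. In KD these were Hnf4a (392 and 242) and Amn (278 and 239). Epiblast markers were higher in library 2 for 6 of 8 in NC and 7 of 8 in KD, and trophectoderm markers for 3 of 9 and 6 of 9. Col1a1, a fibrillar collagen chain of stromal cells, was 13.6 and 92.4 in NC and 9.62 and 43.6 in KD blastocysts, again higher in library 2. Of the tested fibroblast and stromal markers, 3 of 3 in NC and 2 of 3 in KD were higher in library 2. Thy1 was 49.7 and 78.1 in NC but 121 and 55.0 in KD. The sum of that list was 76.8 and 218 in NC and 179 and 163 in KD blastocysts, so in KD it was lower in library 2.

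Primitive endoderm markers, none of them a member, went in both directions, and none passed the test in limma. In morulae 6 of 8 tested markers were higher in KD, 5 of them without overlap (20.7% of all genes), with a median log2 fold change of 0.53. Their summed level was 14486 to 14946 in NC and 16316 to 17682 in KD. Sox17 was 16.1 and 0 in NC and 186 and 72.7 in KD morulae, and Hnf4a was 60.3 and 60.3 against 28.7 and 26.3, lower in KD. In blastocysts 6 of 9 were higher, with a median of 0.27. Without overlap 4 were higher (24.6% of all genes) and 0 were lower (24.9%). The sums of 21400 to 22921 in NC and 22476 to 26123 in KD overlapped. Gata4, Dab2 and Amn were higher in KD without overlap at both stages, and no marker was lower in this way at both. Gata4 was 51.5 and 172 in NC and 181 and 351 in KD morulae, and 190 and 380 against 457 and 822 in blastocysts.

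Of epiblast markers in blastocysts, all 8 tested had lower means in KD on the log2 scale, 7 of them without overlap (24.9% of all genes), with summed levels of 15646 to 18925 in NC and 12574 to 14310 in KD. Of trophectoderm markers 7 of 9 were higher, 6 without overlap (24.6% of all genes), with sums of 93279 to 94148 in NC and 105204 to 118332 in KD. Most of these sums came from Krt8 (39192 and 38809 in NC, 43299 and 49475 in KD) and Krt18 (24994 and 26211, 28953 and 33884). In morulae the trophectoderm sums were 35620 to 38998 in NC and 33144 to 34252 in KD, and the epiblast sums of 13117 to 15053 and 13313 to 13650 overlapped. No marker of these 3 lineages passed the test in limma at either stage. At an unadjusted p under 0.05 there were 2 higher and 1 lower primitive endoderm, 3 lower trophectoderm and 1 higher epiblast markers in morulae, and 4 higher, 5 higher and 6 lower in blastocysts. Their part in the members' differences was not tested.

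Markers of cells from outside the embryo were also summed. Fibroblast and stromal markers summed to 31.3 to 69.7 in NC and 52.9 to 58.8 in KD morulae, and to 76.8 to 218 in NC and 163 to 179 in KD blastocysts. Cumulus and granulosa markers summed to 61.6 to 75.6 in NC and 128 to 148 in KD morulae, and to 66.1 to 68.3 in NC and 82.5 to 111 in KD blastocysts. Foxl2, a granulosa cell factor, was 38.9 and 28.9 in NC and 109 and 77.1 in KD morulae, and 16.3 and 25.1 in NC and 63.9 and 42.6 in KD blastocysts. No other listed marker of these cells was higher in KD without overlap at both stages. Star was 31.1 and 31.7 in NC and 30.3 and 39.3 in KD morulae, and 37.7 and 32.6 against 33.4 and 34.6 in blastocysts, overlapping at both stages. Amh, Inha and Inhba were below 10 in every library, and Fshr, Cyp19a1, Has2, Ptx3 and Tnfaip6 were not listed at either stage. At these low values Amh was higher in KD morulae without overlap (1.85 and 1.03 in NC, 6.74 and 8.72 in KD). Inhba was too (0.929 and 0 in NC, 1.92 and 3.25 in KD), and both overlapped in blastocysts. Both Foxl2 and Serpinh1 were higher in KD, and the part of cumulus and granulosa cells in the members' values was not tested. Oviduct and uterine markers summed to 71.8 to 94.97 in NC and 92.8 to 93.8 in KD morulae and to 671 to 707 and 666 to 769 in blastocysts, where Wfdc2, at 650 to 753, made up most of the sum. Ovgp1 was at most 16.1 in a blastocyst library, and Pax8 and Lcn2 were lower still. These sums are not per kilobase, so they are not set against the levels of members. The part of oviduct and uterine cells in the members' values was not tested. Blood markers summed to 18.9 to 23.0 in NC and 20.4 to 27.0 in KD morulae.

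The other genes of the pathway were taken from 5 lists, and none of their tested genes passed an adjusted p under 0.05 in limma at either stage. Of other basement membrane components 17 were tested at each stage. In morulae 11 were higher and 6 lower in KD (median log2 fold change 0.09; 0 higher and 1 lower at an unadjusted p under 0.05), and in blastocysts 9 and 8 (median 0.19; 3 and 2). Lama4, the alpha chain of vascular laminins, was 128 and 175 in NC and 54.7 and 86.2 in KD morulae (log2 fold change -1.11, adjusted p = 0.426). In blastocysts Lama4 was 70.3 and 108 in NC and 36.2 and 31.6 in KD (-1.34, adjusted p = 0.173). It lay below NC in KD at both stages, as Lama3 did.

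Nid2, a nidogen that links laminin to collagen IV, was 568 and 482 in NC and 617 and 1031 in KD morulae (log2 fold change 0.61, limma adjusted p = 0.510). In blastocysts, a stage at which it was named after its values were seen, Nid2 was 296 and 439 against 581 and 982 (1.07, limma adjusted p = 0.157), the lowest adjusted p of the list there. Smoc1, a SPARC-related protein, was 263 and 247 against 204 and 181 in morulae (-0.40, adjusted p = 0.610). In blastocysts Frem2, of the Fraser complex, was 9.34 and 37.3 in NC and 61.8 and 53.5 in KD (1.56, adjusted p = 0.299), and Fbln2, a fibulin, was 7.47 and 3.73 against 9.99 and 26.9 (1.47, adjusted p = 0.403). Both are low genes with an uneven pair of libraries in each arm or in one.

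Of 14 tested receptors of basement membranes, 7 were higher and 7 lower in KD at each stage (2 and 2 at an unadjusted p under 0.05 in morulae, 2 and 1 in blastocysts). Itgb4, the integrin beta chain of hemidesmosomes that binds laminin-332, was 390 and 362 in NC and 190 and 181 in KD blastocysts (log2 fold change -1.01, limma adjusted p = 0.0987). In morulae Itgb4 was 545 and 807 in NC and 460 and 956 in KD, and the groups overlapped. Itga1, an integrin chain that binds collagen IV, was 47.0 and 44.8 in NC and 109 and 119 in KD morulae (1.29, adjusted p = 0.377), and 74.7 and 110 against 125 and 150 in blastocysts (0.59, adjusted p = 0.388). Sdc1, a cell surface heparan sulfate proteoglycan, was 453 and 803 in NC and 930 and 1331 in KD morulae (0.88, adjusted p = 0.433), and 589 and 694 against 902 and 978 in blastocysts (0.55, adjusted p = 0.145). Itgav, of fibronectin and vitronectin receptors, was 878 and 1500 against 753 and 726 in morulae (-0.63, adjusted p = 0.481). Itgb1, the common partner of laminin and collagen receptors, had the lowest adjusted p of the list and was named after its values were seen. It was 3511 and 3608 in NC and 5144 and 5300 in KD blastocysts (0.55, adjusted p = 0.0742).

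Genes that modify, fold and export procollagen were next. Of 18 tested, 13 were higher and 5 lower in KD morulae (median log2 fold change 0.18; 2 and 0 at an unadjusted p under 0.05) and 12 and 6 in KD blastocysts (median 0.07; 5 and 1). P4ha1, a catalytic subunit of prolyl 4-hydroxylase, was 1407 and 1282 in NC and 908 and 782 in KD blastocysts (-0.67, limma adjusted p = 0.101). Mia3 (TANGO1), which loads procollagen into carriers at the endoplasmic reticulum, was 960 and 873 against 1357 and 1322 (0.55, adjusted p = 0.113). Bmp1, a procollagen protease, was 27.3 and 20.7 in NC and 52.9 and 55.4 in KD morulae (1.15, adjusted p = 0.477), and 35.1 and 38.1 against 60.3 and 52.0 in blastocysts (0.60, adjusted p = 0.464). The prolyl 3-hydroxylases P3h1 (40.4 and 2.24 in NC, 77.9 and 63.2 in KD; 2.62, adjusted p = 0.501) and P3h3 (30.8 and 22.2, 15.0 and 12.7; -0.87, adjusted p = 0.667) went in opposite directions in morulae. Neither passed the test.

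Genes of heparan sulfate synthesis, the sugar chains that perlecan carries, were 6 higher and 6 lower of 12 tested in morulae (median log2 fold change -0.04; 0 and 0 at an unadjusted p under 0.05). In blastocysts they were 4 higher and 9 lower of 13 (median -0.26; 1 and 3), 7 of the lower ones without overlap against 24.9% of all genes. Ndst1, a sulfotransferase, was 563 and 613 in NC and 468 and 353 in KD blastocysts (-0.53, limma adjusted p = 0.224), and Ndst2 was 95.9 and 95.4 against 65.3 and 69.7 (-0.50, adjusted p = 0.447). Xylt1, which starts the chain, was 26.0 and 17.4 against 10.8 and 2.31 (-1.83, adjusted p = 0.320). In morulae Xylt2 was 454 and 359 against 319 and 326 (-0.32, adjusted p = 0.655) and B3gat3 was 547 and 515 against 568 and 637 (0.18, adjusted p = 0.774).

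Other collagens were mostly under the filter, with 2 of 12 tested in morulae and 4 in blastocysts (at an unadjusted p under 0.05, 0 in morulae and 1 in blastocysts). Col5a3, a fibril-forming chain, was 141 and 34.8 in NC and 603 and 285 in KD blastocysts (log2 fold change 2.54, limma adjusted p = 0.143). Col5a1 was 9.41 and 37.4 against 7.42 and 2.64 (-1.85, adjusted p = 0.356), at low values.

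**Figure D5:**
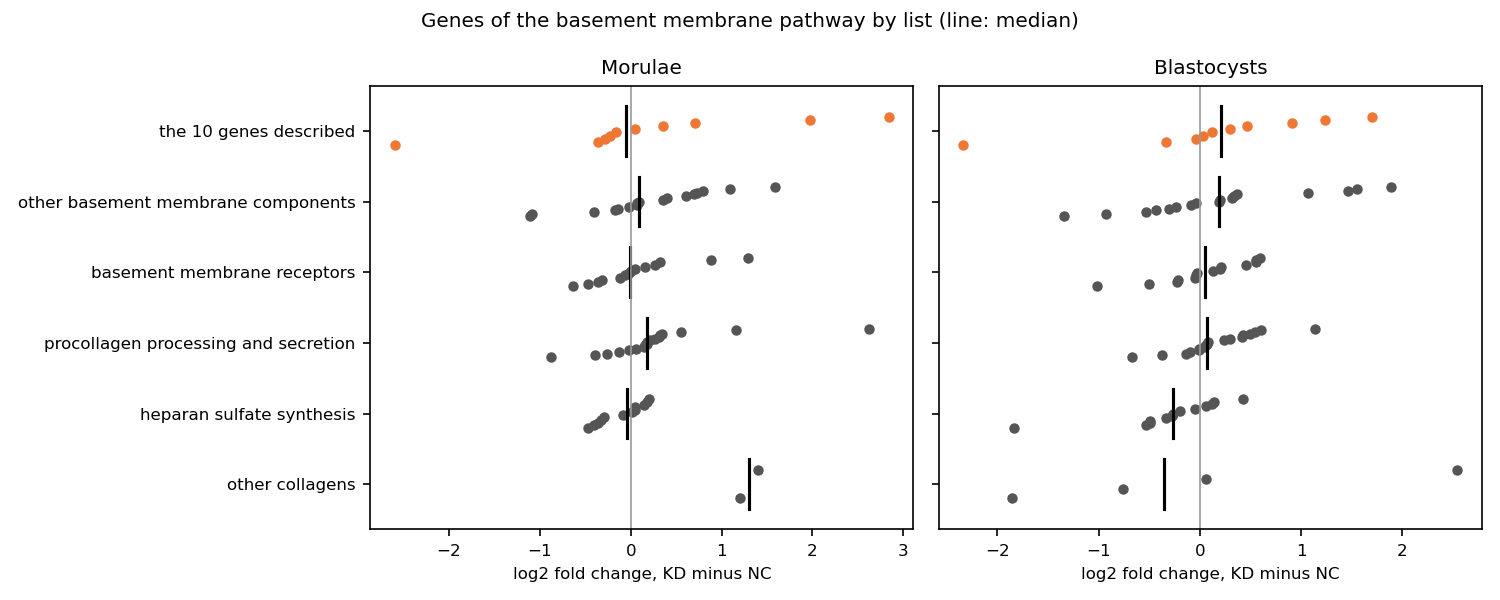
Log2 fold change (KD minus NC, horizontal axis) of each tested gene in 5 lists of the basement membrane pathway (grey) and of the 10 genes described (orange), in morulae and blastocysts, with a vertical line at each list's median. Medians run from -0.04 to 0.18 for the 4 lists with more than 2 tested genes in morulae and from -0.35 to 0.19 for the 5 lists in blastocysts.

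Genes most like 3 of the members were sought by Pearson's r over all 8 libraries, after centring each stage, among 12875 genes tested in both tables. The libraries share the KD against NC difference, so any gene with a like difference scores high, and r is a description only. For Serpinh1 they were Ube2v2 (r = 0.992), Itga1 (0.987) and Wnt6 (0.985). For Hspg2 they were Apoa1 (0.991), Ap1m2 (0.987) and Mdm1 (0.985), and for Lama3 Zfp59 (0.985), Cstf2 (0.984) and Smyd3 (0.984). Apoa1, an apolipoprotein, was 205 and 89.6 in NC and 1213 and 744 in KD morulae and 447 and 715 in NC and 1824 and 2486 in KD blastocysts, so it had the same order of libraries as Hspg2 at both stages. Among the members themselves r over the same 8 libraries was highest for Hspg2 with Serpinh1 (0.949), was 0.729 for Col4a1 with Col4a2 and was lowest for Lama3 with Hspg2 (-0.858).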

How the data were processed

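Gene-level expression was measured in 8 libraries, 2 per group, and groups were taken from the sample titles. The deposited values are a normalized signal per gene in 1 table per stage, made by the authors. Salmon 0.14.1, DESeq2 and mm10 are named in the submitters' processing notes, but not what each was used for. Low values found in several libraries were whole multiples of a library's step in 8.8% to 29.1% of cases (tolerance 0.01), so reads were not recovered, no count test was run, and errors come from differences between libraries. Long transcripts weigh more in such values, which is why genes were compared per kilobase (GENCODE vM21 lengths).

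Of the gene IDs, 98.9% matched a symbol in each table. Genes with a mean of at least 10 entered limma 3.58.1 (R 4.3.3) on the log2(value + 1) scale (KD minus NC within a table, mean-variance trend, Benjamini-Hochberg adjustment, threshold 0.05). The test of the difference between stages used all 8 libraries. The procedure was tested on simulated data. Values are means ± SD. With 2 libraries against 2, no permutation test can reach 0.05. Members, gene lists and the rules for naming genes (all members, up to 3 genes per pathway list and stage with the largest change among those without overlap, the highest markers, the 3 most alike) were chosen with earlier results of these data known. Single marker genes beside these, such as Sox17, Gata4 and Hnf4a, were named after their values were seen. Alternatives changed the pseudocount, filter, normalization, variance trend, replicate block, transcript length and libraries included.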

Additional observations from a re-analysis of the deposited data

Results flagged for a closer look

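For 3 quantities flagged here both arms were separate at each stage but in opposite order. Separate arms are common with 2 libraries each. Of all tested genes 20.7% were higher and 21.2% lower in KD without overlap in morulae, and 24.6% and 24.9% in blastocysts. The share of genes or ratios that turn between stages is not given here, and the trophectoderm marker sums above turned as well. Nothing is therefore read from this count. The share of Lama5 among the laminin alpha chains was higher in KD morulae and lower in KD blastocysts, and its KD minus NC difference was 13.2 percentage points lower in blastocysts (-13.2), which was not tested. Without KD blastocyst library 2, whose share was 71.4% beside 85.1% in library 1, this difference was -6.33, and without KD blastocyst library 1 it was -20.1. The ratio of Col4a1 to Col4a2 was lower in KD morulae and higher in KD blastocysts, and its KD minus NC difference was 0.434 higher in blastocysts, which was not tested either. P3h1, a prolyl 3-hydroxylase of procollagen, was 40.4 and 2.24 in NC and 77.9 and 63.2 in KD morulae, and 207 and 207 in NC and 202 and 185 in KD blastocysts. Its log2 fold change was lower in blastocysts by 2.71 (-2.71, SE 1.33), and this difference did not pass in limma (adjusted p = 0.921).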

How the results depend on the processing

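Pseudocounts of 0.5 and 5, no filter on low values, quantile normalization, no mean-variance trend and the replicate block left the direction of every member unchanged at both stages. The number of genes called was 0 at both stages without the trend, and 27 in blastocysts without the filter, where more genes were tested. With the replicate number as a block, 892 genes were called in morulae (6.65% of all tested), 4 of them members, and 1208 in blastocysts (8.85%), 6 of them members. For the difference between stages 1 was called. The members were chosen with the KD against NC contrast known, so the member counts are no evidence of an excess over all genes. Same-numbered libraries deviated together across genes with a correlation of 0.30 in morulae and 0.15 in blastocysts, and with 2 pairs per stage the labels do not say that the number pairs libraries. With 1 library left out, the remaining one is taken to vary as much as the other arm. Calls were then 1 to 1 in morulae, 1 to 3 in blastocysts and 0 to 2 for the difference between stages, with fewer samples. The members' median ran from -0.020 to 0.26 in morulae and from 0.05 to 0.36 in blastocysts. Directions turned for Lama1 (-1.98 to 1.41), Lama5 (-0.52 to 0.072), Col4a1 (-0.33 to 0.018) and Col4a2 (-0.11 to 0.22) in morulae and for Lamc1 (-0.22 to 0.27), Col4a1 (-0.033 to 0.27) and Col4a2 (-0.23 to 0.16) in blastocysts, each of which overlapped between arms at that stage. Serpinh1, Hspg2, Lama3, Lamb1 and Sparc kept theirs. Merged exon length in place of the longest coding transcript moved the mean ratio of Lamb1 to Lamc1 to 0.915 in morulae and 0.659 in blastocysts, of Col4a1 to Col4a2 in blastocysts to 1.74 and of Sparc to Col4a1 to 0.135 in morulae and 0.949 in blastocysts. Adding Lama4 to the sum of alpha chains, and leaving out libraries for the difference between stages in shares and ratios, were chosen after seeing the data.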
